A study of Drosophila melanogaster with 2 samples.

Results

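The pair-rule genes even skipped (eve), fushi tarazu (ftz), hairy (hry), runt (run), odd skipped (odd), paired (prd), sloppy paired 1 (slp1), sloppy paired 2 (slp2) and odd paired (opa) were examined in a chromatin immunoprecipitation and sequencing (ChIP-seq) map of CG6813 binding. They are 9 of the 13968 protein-coding genes of the annotation. They were taken by name, not by a measured value, but earlier results of these data were known when they were chosen. A region was assigned to a gene when its summit, the position of highest signal, lay inside the gene or within 10 kb of it. CG6813 belongs to the zinc finger proteins that carry a zinc finger-associated domain (ZAD). Chromatin came from whole Drosophila melanogaster embryos of both sexes, aged 0 to 24 h, of a transgenic strain whose CG6813 is fused at its C-terminus to GFP, and an antibody to GFP was used for the precipitation. All samples belong to 1 group, CG6813-GFP embryos, with 2 biological replicates numbered 2 and 3, and both come from the same strain. No group without the fusion and no control library was analysed here, though the authors' listing gives the source of their control-normalized signal as an input to the region lists too.

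Pair-rule genes encode transcription factors that divide the early embryo into repeating units. Hry, eve, run, ftz and odd form the upper tier, whose transverse stripes are set largely by maternal and gap factors. Separate stripe enhancers take part at several of them, and their position relative to the gene differs between genes. Prd, slp1 and slp2 refine the pattern later, opa is expressed in a broad domain and shifts the network to its late phase, and the products together position the stripes of segment polarity genes such as engrailed and wingless. Several of these genes are used again later in the embryo, for example in the nervous system. Embryos of 0 to 24 h include stages before, during and after the stripes, and the share of cells that expressed each gene was not measured.

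The deposited data are lists of regions with a signal value from the authors' peak caller. The thresholded list holds 5012 peaks, and the pooled list and the list of each replicate hold 30000 regions each, background included. Ranks below are places by signal within a list, with 1 the strongest. The thresholded peaks were the 5012 strongest pooled regions, so a peak has the same rank in both. The lowest thresholded signal was 145.73 and the next pooled region had 145.71. The depth of the libraries is unknown. Every value belongs to 1 list, so replicate 2 and replicate 3 are given side by side in place of a standard deviation.

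Thresholded CG6813 peaks lay near 4 of the 9 pair-rule genes, hry, slp1, slp2 and prd, and near none of eve, ftz, run, odd and opa. Across all protein-coding genes 59.1% had such a peak in the gene or within 10 kb, so the members' share was not above the background. The windows of the 9 genes, 209.6 kb without overlaps, held 6 distinct peaks, or 2.86 per 100 kb, against 3.74 per 100 kb over the chromosome arms without Y. The median signal of the 6 peaks was 248.3, beside 226.4 for all thresholded peaks. Only hry had a thresholded summit within 500 bp of a transcription start site (TSS), against 14.8% of protein-coding genes. All 6 peaks had a region within 200 bp in both replicates, as had 98.3% of all thresholded peaks. In coordinates of the dm6 assembly, the RefSeq sequences at or beside these summits read as follows on the plus strand, from 5′ to 3′. They are shown for every thresholded peak of the group. UTR bases were left out, so the stretch at CG14947 ends at 12076099, before its summit at 12076128. The other stretches include their summits. Capitals mark searched letters described with each peak.

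slp1 to slp2, intergenic peak of rank 166, chr2L:3832430-3832580: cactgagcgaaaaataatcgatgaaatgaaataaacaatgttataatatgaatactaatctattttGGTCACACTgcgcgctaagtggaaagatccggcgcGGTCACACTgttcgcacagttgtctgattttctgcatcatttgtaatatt

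slp1, downstream peak of rank 1986, chr2L:3827756-3827906: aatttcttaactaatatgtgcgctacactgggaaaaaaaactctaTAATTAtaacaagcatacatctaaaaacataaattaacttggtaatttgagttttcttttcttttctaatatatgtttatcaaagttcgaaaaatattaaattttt

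slp2, downstream peak of rank 4021, chr2L:3841140-3841290: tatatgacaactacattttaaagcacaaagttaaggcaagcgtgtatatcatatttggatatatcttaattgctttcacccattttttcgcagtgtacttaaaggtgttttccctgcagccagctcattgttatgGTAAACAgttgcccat

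hry, start-site peak of rank 1707, upstream bases only, chr3L:8675608-8675758: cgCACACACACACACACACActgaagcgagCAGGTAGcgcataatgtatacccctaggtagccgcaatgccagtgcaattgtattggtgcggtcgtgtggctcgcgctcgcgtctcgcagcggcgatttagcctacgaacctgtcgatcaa

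hry, downstream peak of rank 2374, chr3L:8683897-8684047: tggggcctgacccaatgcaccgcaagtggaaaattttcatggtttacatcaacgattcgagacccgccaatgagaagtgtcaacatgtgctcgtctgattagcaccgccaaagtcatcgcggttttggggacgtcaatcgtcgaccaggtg

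prd window, peak of rank 3515 at CG14947, upstream bases only, chr2L:12075949-12076099: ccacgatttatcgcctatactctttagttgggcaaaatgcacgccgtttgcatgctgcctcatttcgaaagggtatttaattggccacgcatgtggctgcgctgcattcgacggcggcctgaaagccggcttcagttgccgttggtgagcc

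**Figure D1:**
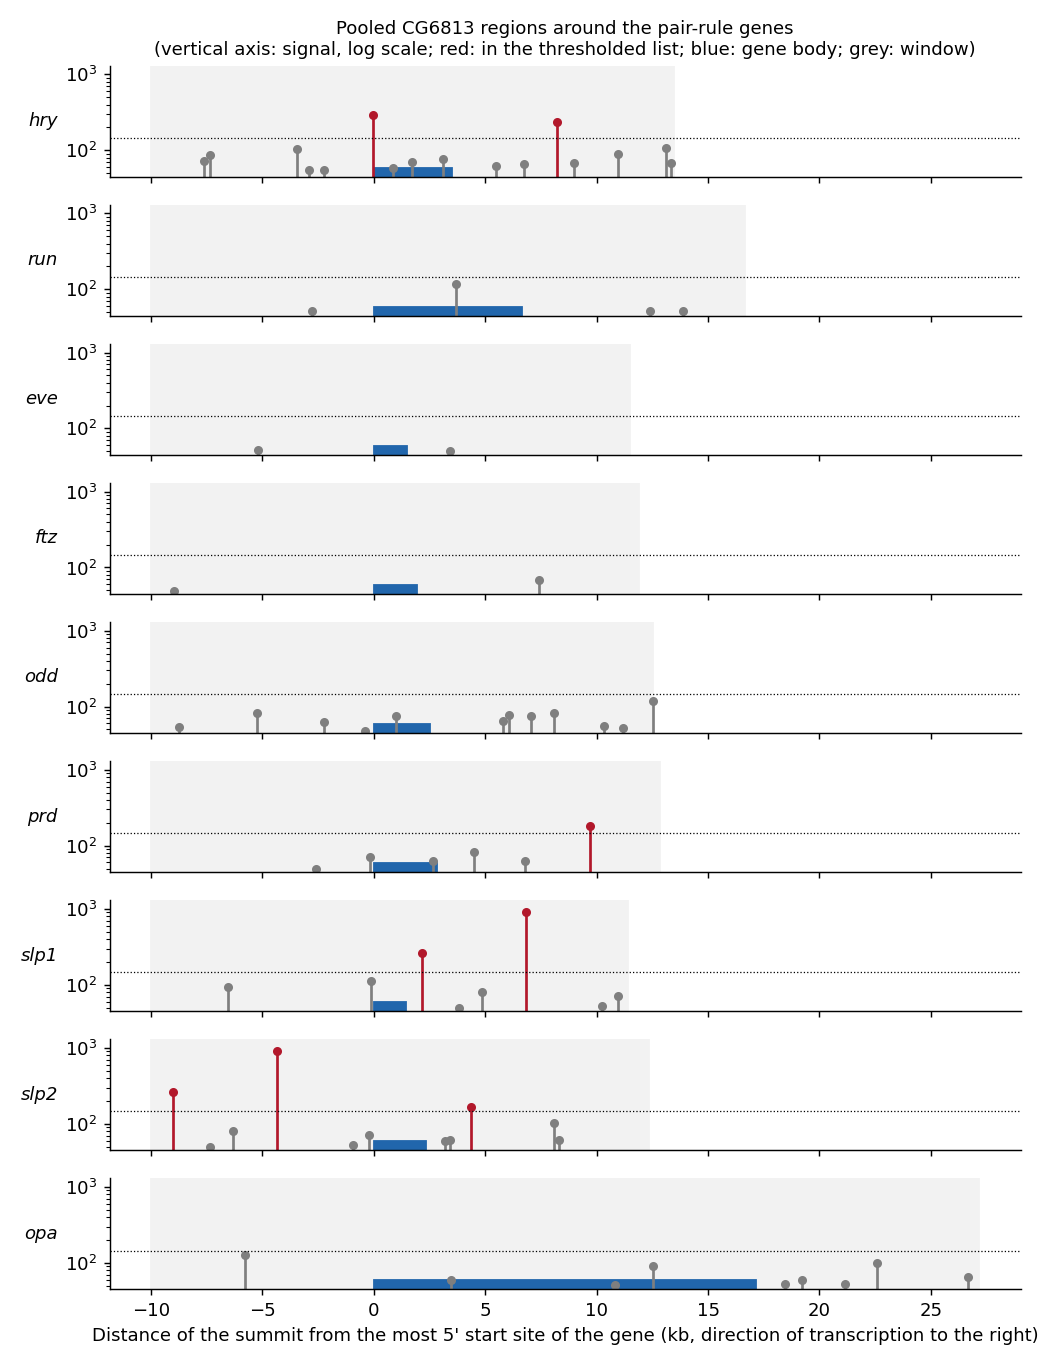
Pooled CG6813 regions in the windows of the 9 genes. The horizontal axis is the distance of each summit from the most 5′ TSS in kb, the vertical axis is the pooled signal on a log scale, blue bars are gene bodies, grey areas are the windows, red points are thresholded peaks and the dotted line is the lowest thresholded signal (145.73); the highest point is the peak between slp1 and slp2 at 914.8, and the windows of eve and ftz hold 2 low points each.

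The slp1 and slp2 genes, which encode closely related forkhead transcription factors and stand in tandem on 2L, shared the strongest peak of the group. Its summit (2L, 3832505, peak 3832381 to 3832652) was intergenic, 5406 bp past the end of slp1 (FBgn0003430, 3825675 to 3827099, plus strand) and 4335 bp upstream of the TSS of slp2 (FBgn0004567, 3836840 to 3839185, plus strand). Its pooled signal was 914.8 at rank 166, within the strongest 3.31% of the thresholded list. Replicate 2 gave 668.0 at rank 148 and replicate 3 gave 250.2 at rank 217, with summits 7 bp before and 2 bp after the pooled one. Both replicates thus placed it among their strongest regions. The ratio of replicate 2 to replicate 3 was 2.67, inside the interquartile range of all thresholded peaks (1.72 to 2.78, median 2.19). The peaks next to it in rank were at CG7737 (rank 165, signal 919.3, 147 bp upstream of its TSS) and in an intron of tara (rank 167, 913.6).

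The peak between the slp genes held the letters GGTCACACT at 2 places, 9 to 1 bp before and 26 to 34 bp after the summit, both on the plus strand and 35 bp apart from start to start (capitals in the first sequence above). These letters are the core of Ohler motif 1, a core promoter element that the ZAD zinc finger protein M1BP reads. They were searched on both strands after the sequence had been seen, so the match is a description with no test. Of the 5012 windows of 100 bp on each side of a thresholded summit, 36 (0.718%) held the letters, and this was the only window with 2 or more copies. Among the 30000 pooled windows 169 (0.563%) held them and 4 held 2 or more. Of the 36 thresholded windows 34 lay within 500 bp of an annotated TSS of any gene type and 2 did not, the one between slp1 and slp2 among the latter. Of all 5012 thresholded peaks 1858 (37.1%) lay within 500 bp of a TSS of a protein-coding gene, a narrower set of start sites. By signal the peak between slp1 and slp2 was the highest but 1 of the 36, whose median rank was 2682.5. GC content around its summit was 39.8%, beside a median of 37.3% for thresholded windows.

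The slp locus held 2 further thresholded peaks, 1 beyond the 3′ end of each gene. The peak downstream of slp1 (2L, 3827621 to 3828040) had its summit 732 bp past the gene end. It had a pooled signal of 262.9 at rank 1986, with 175.1 in replicate 2 (rank 2122) and 83.7 in replicate 3 (rank 2195). Its window held TAATTA, the core that homeodomain proteins read, 30 to 25 bp before the summit. Those letters stood in 14.7% of all thresholded windows. At 21.4%, its GC content was among the lowest, with 0.658% of thresholded windows below it. The peak downstream of slp2 (2L, 3841005 to 3841424) lay 2030 bp past the gene end and was the weakest of the 6, with a pooled signal of 168.4 at rank 4021. Its values were 114.8 in replicate 2 (rank 3972) and 56.3 in replicate 3 (rank 4675). The letters GTAAACA, which forkhead proteins read, stood 60 to 66 bp after its summit, and stood in 9.78% of all thresholded windows.

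At their own start sites slp1 and slp2 had weaker regions, none of them thresholded. A pooled region 141 bp upstream of the slp1 TSS had a signal of 112.7 (rank 7367), with 51.6 in replicate 2 (rank 12680) and 49.8 in replicate 3 (rank 5873). A pooled region 212 bp upstream of the slp2 TSS had 70.2 (rank 15443), with 40.0 in replicate 3 (rank 8890) and no region within 200 bp in replicate 2. The peak between the genes therefore stood far above both start sites in each replicate. In all, the slp1 window held 8 pooled regions and the slp2 window 11, and the windows overlap.

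Hry, which encodes a basic helix-loop-helix repressor that works with the corepressor Groucho, had the most regions of the group and the only thresholded peak at a start site. The gene (FBgn0001168) lies on 3L from 8675759 to 8679253 on the plus strand. The start-site peak (3L, 8675523 to 8675942) had its summit 26 bp upstream of the TSS and a pooled signal of 290.8 at rank 1707. Replicate 2 gave 191.4 (rank 1858) and replicate 3 gave 92.8 (rank 1777), so the replicates placed it almost alike. A downstream peak (3L, 8683762 to 8684181), 4719 bp past the gene end in intergenic sequence, had 233.7 at rank 2374, with 146.7 in replicate 2 (rank 2750) and 84.5 in replicate 3 (rank 2147). Its replicate ratio of 1.74 was the lowest of the 6 peaks, and that of the start-site peak was 2.06. Both hry peaks were GC-rich, at 57.7% and 55.2%, above 98.6% and 97.2% of thresholded windows.

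Letters searched within 100 bp of the hry start-site summit gave CAGGTAG, which the early activator Zelda reads, 95 to 89 bp before the summit, and GAGAG, read by GAGA factor and CLAMP, 42 to 46 bp after it. CAGGTAG stood in 58 of the 5012 thresholded windows (1.16%), and GAGAG in 27.7%. A CA repeat (CACACACA, in 5.91% of windows) opens the printed hry sequence but lies more than 100 bp from the summit, and the GAGAG copy lies downstream of the printed bases. CAGGTAG and GAGAG also both stood in the 151 bp around the summit of the pooled region at the slp1 start site (rank 7367), which was not thresholded. Start-site regions of the remaining members were not searched for them. The hry downstream window held none of the 13 letter strings searched. The strings CACGCG (Hairy), AACCGCA (Runt), CAAGGTCA (Ftz-F1), TATCGATA (DRE), GCCAT (Pho core), CAGCTG and CACGTG (E-boxes) were absent from all 6 member windows. They stood in 4.43%, 1.86%, 0.259%, 1.70%, 27.3%, 9.14% and 2.13% of all thresholded windows. Both strands were searched throughout, and letters of different strings may overlap.

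Beyond these peaks the hry window held 14 weaker pooled regions, for a total of 16, a number that 5.86% of protein-coding genes reached or passed. They lay from 7604 bp upstream of a TSS to 9832 bp past the gene end. The strongest was 9624 bp past the end (106.7, rank 7980), with 88.0 in replicate 2 and no region within 200 bp in replicate 3. The next, 3437 bp upstream, had 102.4 (rank 8448), with 47.8 in replicate 2 and 51.0 in replicate 3. Of the 16 regions 9 were matched in both replicates, 6 in replicate 2 alone and 1 in replicate 3 alone. Replicate 2 listed 21 regions in the hry window and replicate 3 listed 14.

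**Figure D2:**
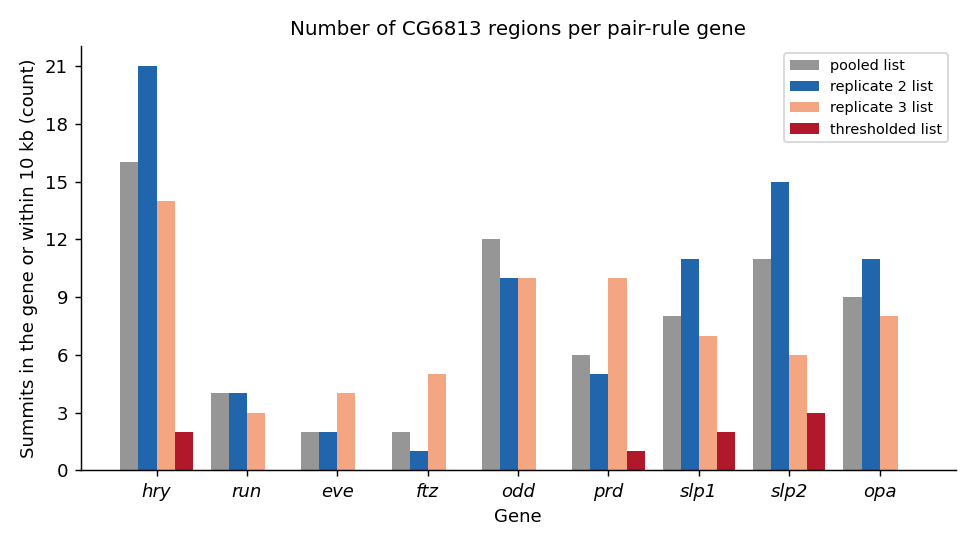
Number of summits in each gene or within 10 kb of it, by list. Bars start at 0 and are counts in the pooled, replicate 2, replicate 3 and thresholded lists; hry has the most in the pooled list (16), eve and ftz the fewest (2), and thresholded summits are at hry, prd, slp1 and slp2.

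Prd encodes a paired-domain and homeodomain activator, and its thresholded peak lay at another gene. The peak (2L, 12075918 to 12076337) had its summit 28 bp inside the 5′ UTR of CG14947, 6867 bp past the end of prd (FBgn0003145, 12082995 to 12085827, minus strand). Its pooled signal was 183.4 at rank 3515. Replicate 2 gave 129.1 (rank 3348) and replicate 3 gave 46.4 (rank 6688), a ratio of 2.78, the highest of the 6 peaks. GC content was 55.2%, above that of 97.2% of thresholded windows. At rank 6688 in replicate 3 the peak was not among the 5012 strongest regions of that list, and without replicate 2 prd had 0 peaks. The next pooled regions of the prd window were weaker. The strongest of them, in a noncoding exon of lncRNA:CR44590 1653 bp past the gene end, had 81.5 (rank 12167), with 56.0 in replicate 2 and 24.8 in replicate 3. A region 160 bp upstream of a prd TSS, in a noncoding exon of asRNA:CR44592, had 71.0 (rank 15158), with 46.4 in replicate 2 and 25.6 in replicate 3.

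Of the members without a thresholded peak, opa, odd and run came closest to the threshold. Opa encodes a zinc finger protein of the Zic family, and its gene (FBgn0003002, 3R, 4852813 to 4869979, plus strand) is the longest of the group at 17167 bp. Its strongest pooled region, 5791 bp upstream of the TSS, had 127.3 (rank 6134), with 84.7 in replicate 2 (rank 6103) and 37.3 in replicate 3 (rank 10194). The opa window held 9 pooled regions, 3 of them in introns. The region in an intron at 12520 bp from the TSS had 90.0, with 56.1 and 32.8 in replicates 2 and 3.

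Odd encodes a zinc finger repressor (FBgn0002985, 2L, 3604224 to 3606756, minus strand), and 12 pooled regions lay in its window. That number was reached or passed by 13.1% of protein-coding genes. The strongest, 9997 bp past the gene end and so just inside the window, had 118.8 (rank 6790), with 84.7 in replicate 2 (rank 6098) and 36.1 in replicate 3 (rank 10825). The others ranged from 48.2 to 83.4, and 1 of them, of 75.3, lay in the coding exon of odd. Thus odd had many weak regions and no peak, whereas the nearest thresholded summit was 15738 bp away, in a noncoding exon of lncRNA:CR43823 (signal 287.7).

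Run encodes the DNA-binding subunit of a Runx complex (FBgn0003300, X, 20690670 to 20697321, plus strand) and has 2 annotated TSSs. The strongest of its 4 pooled regions lay 84 bp upstream of the downstream TSS, inside the 5′ UTR of the longer transcript. Its pooled signal was 116.3 (rank 7026). Replicate 2 gave 49.8 (rank 13374) and replicate 3 gave 63.8 (rank 3685), a ratio of 0.781 where the median over pooled regions matched in both replicates was 1.69. Replicate 3 alone would place it among its 5012 strongest regions. GC content around the replicate 3 summit was 60.7%. The other 3 pooled regions of run had signals from 51.7 to 51.9, and each was matched in 1 replicate only.

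Eve and ftz, both homeodomain genes with closely studied stripe enhancers, had the fewest pooled regions, and the strongest pooled region of each was weaker than that of every remaining member. In the replicate 3 list run had the fewest, with 3, beside 4 for eve and 5 for ftz. Eve (FBgn0000606, 2R, 9979319 to 9980795, plus strand) had 2 pooled regions, at 5208 bp upstream of the TSS in a noncoding exon of lncRNA:CR46455 (51.2, rank 26245) and 1937 bp past the gene end (51.1, rank 26351). Replicate 2 gave 36.2 and 37.5 there, and replicate 3 had no region within 200 bp of either. Ftz (FBgn0001077, 3R, 6864324 to 6866244, plus strand) had 2 pooled regions, 5471 bp past the gene end (68.6, rank 16043) and 8987 bp upstream (49.4, rank 27843). The downstream one was matched in replicate 2 alone (51.9) and the upstream one in replicate 3 alone (24.8). A count of 2 or more pooled regions was found at 88.3% of protein-coding genes. None of the 4 regions was thus seen in both replicates. The nearest thresholded summit to eve was 19422 bp away, in an intron of Pal1 and 165 bp upstream of Pdrg1, and at 1646 it ranked 33. For ftz, run and opa the nearest lay 15591, 28803 and 16344 bp from the gene.

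All 9 members had at least 1 pooled region in the window, as had 94.2% of protein-coding genes, and 94.3% and 95.3% in the replicate 2 and replicate 3 lists, where all 9 members also had one. Pooled regions were denser at the pair-rule genes than over the arms, with 64 distinct regions or 30.5 per 100 kb against 22.4. Their density of thresholded peaks was lower, as given above (2.86 against 3.74). The median window of a member held 8 pooled regions, and that of a protein-coding gene held 6. The 64 regions had a median signal of 68.3, beside 71.4 for the whole pooled list. Of the 64, 32 (50.0%) were matched in both replicates, 21 in replicate 2 alone, 10 in replicate 3 alone and 1 in neither. Of all pooled regions 55.3% were matched in both, 25.6% in replicate 2 alone and 15.0% in replicate 3 alone. The median ratio of replicate 2 to replicate 3 was 1.72 over the 32 matched member regions and 1.69 over all matched pooled regions.

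**Figure D3:**
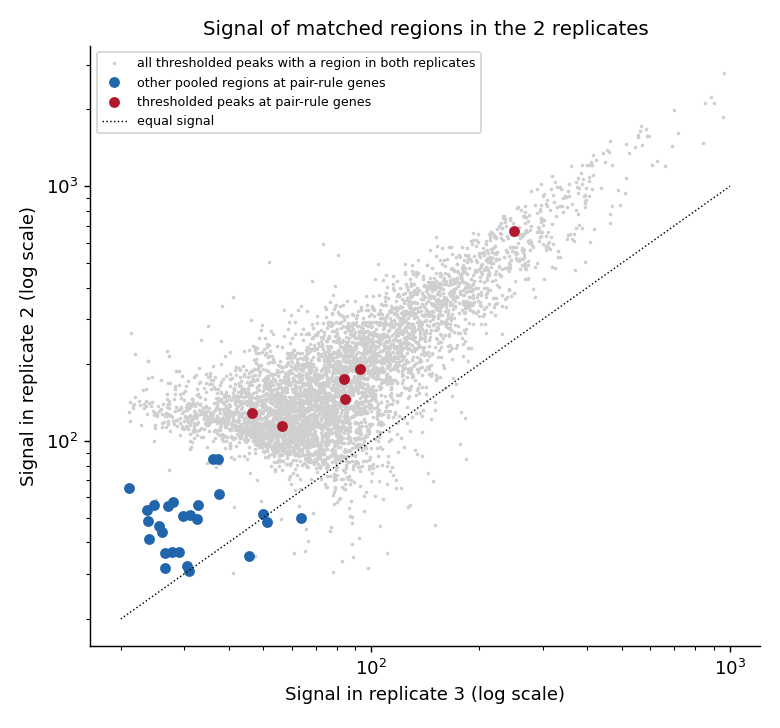
Signal of matched regions in replicate 2 (vertical, log scale) against replicate 3 (horizontal, log scale). Grey points are all thresholded peaks matched in both replicates, red points the 6 thresholded peaks at pair-rule genes, blue points the other matched pooled regions there, and the dotted line is equal signal; the 6 red points lie above it, with ratios from 1.74 to 2.78.

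The replicates differed at the start sites of the pair-rule genes. In the replicate 3 list all 9 genes had a region within 500 bp of a TSS, against 43.9% of protein-coding genes. In the replicate 2 list 4 of the 9 did, hry, run, prd and slp1, against 40.1%. Eve, ftz, odd, slp2 and opa had one in replicate 3 alone, as had 11.8% of protein-coding genes, and no member had one in replicate 2 alone, as had 7.95%. In the pooled list 6 of the 9 had one (hry, run, odd, prd, slp1 and slp2), against 41.4%. The members were chosen with earlier results known and the difference between the lists was not tested.

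Of the 9 start-site regions of replicate 3, 6 (hry, run, slp1, odd, slp2 and opa) were among the stronger 15000 of that list, whose median signal was 30.4, and those of eve, ftz and prd were not. For odd, replicate 3 listed a region 15 bp upstream of the TSS with a signal of 46.4 (rank 6693), and the pooled list had its nearest 379 bp upstream (48.2, rank 29013). For opa, replicate 3 listed a region 247 bp upstream of the TSS (36.5, rank 10640) that had no counterpart within 500 bp of the TSS in either other list of 30000. The slp2 region given above (40.0, rank 8890) was also listed at the start site in replicate 3 and not in replicate 2. The region of eve, 29 bp downstream of the TSS, had 22.9 (rank 25628), and that of ftz, 360 bp upstream, had 22.3 (rank 27034), both close to the lowest signal in that list (21.0). Of the 4 members with a start-site region in both replicates, hry, run and slp1 were placed higher in replicate 3 and prd was placed lower (ranks 14976 in replicate 2 and 20961 in replicate 3). Over all protein-coding genes with such a region in both, 52.2% were placed higher in replicate 3.

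GC content was measured at the same summits. The windows of 100 bp on each side of the 9 replicate 3 summits had a median GC content of 54.7%, from 43.3% at slp2 to 60.7% at run. The 4 genes with a region in both replicates ranged from 50.7% (hry) to 60.7% (run), and the 5 with one in replicate 3 alone from 43.3% (slp2) to 60.2% (odd), so these ranges overlapped. The median over all regions within 500 bp of a coding TSS was 43.3% in replicate 3 and 41.8% in replicate 2. Pooled regions matched in replicate 3 alone had a median of 45.3%, beside 41.3% for those matched in replicate 2 alone. The part of GC content in the difference between the replicates at these genes was not tested.

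**Figure D4:**
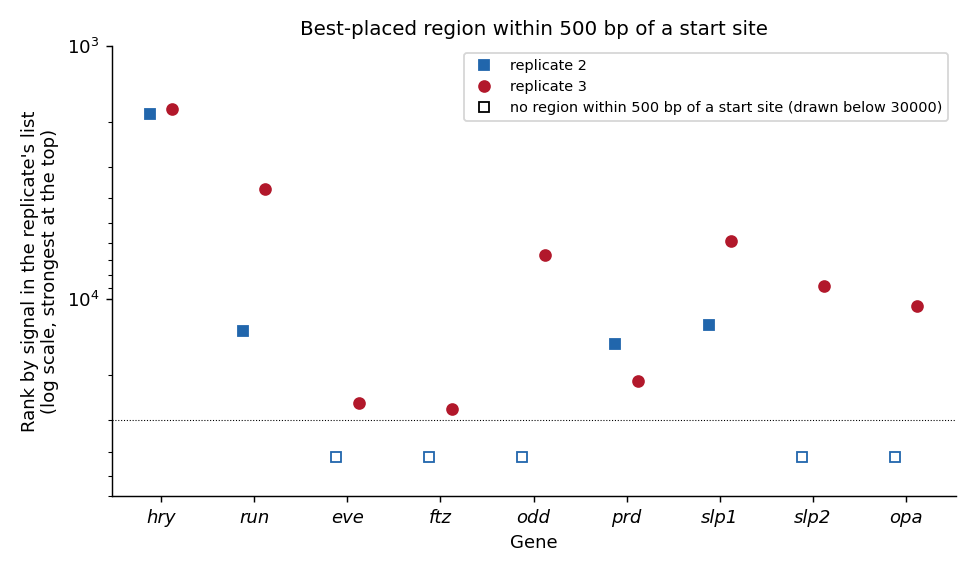
Rank of the best-placed region within 500 bp of a start site of each gene in replicate 2 (blue squares) and replicate 3 (red circles), on a log axis with the strongest at the top. Open symbols drawn below the dotted line at 30000 mark genes with no such region; replicate 3 has a filled symbol for all 9 genes and replicate 2 for hry, run, prd and slp1.

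Genes that act with the pair-rule genes, and paralogs of pair-rule genes, were counted in the same way for comparison. The list held 36 genes, made of 11 maternal and gap inputs, 6 partners and corepressors, 10 segment polarity genes or late targets and 9 paralogs, and it was drawn up with earlier results of these data known. Of the 36, 25 had a thresholded peak in the gene or within 10 kb, beside 4 of the 9 pair-rule genes and 59.1% of protein-coding genes. At a start site 9 of the 36 had one, beside 1 of 9 and 14.8%. These counts were not tested against each other. The partners were near peaks in 6 of 6 cases, the paralogs in 7 of 9, the maternal and gap inputs in 7 of 11 and the segment polarity genes in 5 of 10. At start sites the strongest were those of Stat92E, the transcription factor of the JAK-STAT pathway (831.5, rank 215), gro, the Groucho corepressor of Hairy (704.9, rank 316), and bowl, a paralog of odd (596.0, rank 434). Start-site peaks also stood at nkd (427.7), ptc (281.9), cad (275.1), ftz-f1, the nuclear receptor partner of Ftz (185.5), bcd (177.8) and hb (169.0). Bro and Bgb, which encode partners of Runt, shared 1 peak within 10 kb (353.0).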

How the data were processed

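ChIP-seq region lists on dm6 were used, namely a thresholded list, a pooled list and a list for each of 2 replicates. The listing that the authors deposited describes the lists of 30000 regions as peaks plus background, used as input to an irreproducible discovery rate step. It derives them from the samples' alignments and from the further file that it also gives as a source of the control-normalized signal. It describes the thresholded list as the optimal set of that step. The signal value of each region is deposited as the authors' peak caller gave it. The caller, its normalization, the aligner and the read depth were not given in the sources used here. Per the labels, chromatin was sonicated to 200 to 800 bp. Lists on dm3 were not used, since no coordinate was converted.

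Genes came from BDGP6.54 (Ensembl release 115) and sequence from the RefSeq release 6 assembly, whose arms hold every region and whose bases read ATG at all 10 annotated start codons of the members. Summits were counted inside a gene or within 10 kb, and within 500 bp of any TSS, with Python 3.11.15, pandas 2.3.3 and numpy 2.4.6. Regions of different lists were matched when summits lay within 200 bp. Window counting was checked on planted summits. Atro was matched as Gug by synonym. The named genes are the 9 members, genes of the comparison list with a thresholded summit within 500 bp of a TSS, the rank neighbours of the strongest member peak and genes at member peaks. Bro and Bgb, tied by 1 shared peak, were named after their values were seen. The members and lists were chosen with earlier results of these data known. With 1 group and no control samples no test was made. The labels call the replicates biological and give them separate biosamples of 1 strain. Ratios between replicates describe the deposited values only.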

Additional observations from a re-analysis of the deposited data

How the results depend on the processing

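The 6 thresholded summits, the 4 members near one and the 6 summits matched in both replicates changed by at most 1.5 times under stricter lists, a window of 5 kb and nearest-TSS or overlap assignment. A window of 2 kb left 2, 2 and 2, so these counts depend on the width of the window. A narrower window can only lower them, and the summits left out lay 2030 bp or more from a member gene. The first 2 of these counts were also taken in each replicate alone, where they were 6 and 4, and the matched summits also with matching distances of 100 and 500 bp, where they were 6. The window of 2 kb also left out the peak between slp1 and slp2, so the best rank became 1707 (hry). A window of 5 kb held 40 pooled regions and one of 2 kb held 22, against 64. Leaving out a replicate means ranking the other one's own list and taking its 5012 strongest regions. The best rank was then 148 to 217, and the median signal of the member peaks 84.1 to 160.9, on each replicate's own scale. The count of members with a start-site peak was 1 to 2, since without replicate 2 run joined hry. The distinct peaks stayed at 6 in each case, with run in place of prd without replicate 2. The prd peak was also absent from the stronger 2506 peaks, with a window of 5 kb or 2 kb, among peaks strong in both replicates and when the nearest coding TSS had to be a member's. In alternatives chosen after seeing the data, the 9 members with a replicate 3 region near a TSS became 6 within 200 bp (eve, hry, run, odd, prd and slp1). In the stronger 15000 regions they also became 6, but not the same ones (hry, run, slp1, odd, slp2 and opa). The 4 of replicate 2 remained 4 in number in each of these 2 alternatives. Depth limits are unknown because the lists hold no counts. The labels give 1 group, so no paired analysis applies.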
